A study of Mus musculus with 63 samples.

Results

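Day 6 RNA-seq libraries of EPS cells carrying a short hairpin RNA against Yy1 (EPS shYy1) were compared with day 6 libraries of ES control cells (ES oeCtrl), to describe what still separated these differentiated populations. The comparison holds 4 libraries, 2 of EPS shYy1 and 2 of ES oeCtrl, chosen by their sample titles out of 22 libraries with a table of gene counts and 63 mouse samples in the series. Every sample is labelled as strain C57BL/6. EPS cells, a cultured state reported to reach embryonic and extraembryonic lineages, were kept in LCDM medium, and ES cells in 2i medium. Both grew on mitomycin C-inactivated mouse embryonic fibroblasts or on Matrigel, and the labels do not say which library came from which. All 4 libraries were taken after 6 days in a medium named F4H. The EPS shYy1 cells are labelled Yy1-depleted, and the ES oeCtrl cells are labelled as controls of an overexpression construct. The names of the deposited control tables leave the construct out, which does not show whether they carry it. The groups differ in cell of origin, in undifferentiated culture medium and in hairpin at once, so these cannot be told apart. The labels do not say whether replicates came from separate cultures. A p-value therefore weighs a difference against the spread of these samples alone, and that spread may be technical. Further day 6 groups, EPS cells with a control hairpin (EPS shCtrl) and ES cells overexpressing Yy1 (ES oeYy1), and the undifferentiated cells of the same names, 2 libraries each, are given for orientation.

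YY1 is a zinc finger transcription factor that binds promoters and enhancers and is known to help hold them together in chromatin loops. In mouse cells it has been reported to bind the Xist locus and imprinted loci such as Peg3. Xist is the long noncoding RNA that coats and silences 1 X chromosome in female cells. Imprinted genes are expressed mainly from the maternal or the paternal copy, under differentially methylated regions set in the germline, and many of them govern growth.

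Counts on genes came to between 16011955 and 19932675 in the 4 libraries compared. Levels are CPM, a gene's counts relative to all counts of the library on the usual fixed scale, after scaling between libraries, and a change is a log2 fold change ± SE of EPS shYy1 over ES oeCtrl. Calls were made with edgeR's quasi-likelihood test where the p adjusted after Benjamini and Hochberg was under 0.05, and "rose" and "fell" are used of called genes alone. A gene with no count could still stand at between 0.15 and 0.187 CPM, taking 3 counts as the limit. In each gene described with its test as risen or fallen on day 6, both libraries of one group stood beyond both of the other, save where an overlap is stated. Such a lack of overlap was seen for 68.5% of all genes tested. Markers of pluripotent cells were low in both groups. Their summed level over 7 genes was 114 and 108 CPM in EPS shYy1 and 240.2 and 239.9 CPM in ES oeCtrl on day 6. Before differentiation it was 4538 and 4723 CPM in EPS shYy1 and 4252.5 and 4549 CPM in ES oeCtrl. The labels name no cell type for day 6. Smooth muscle markers summed to 2284 and 2259 CPM in EPS shYy1 and 2594 and 2460 CPM in ES oeCtrl, and fibroblast and feeder markers, which feeder cells would also bring, to 488 and 503 CPM in EPS shYy1 and 514 and 511 CPM in ES oeCtrl. In these bulk samples fewer cells of a type and less RNA per cell cannot be told apart.

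Yy1 itself, on chromosome 12, start 108792945, end 108820148 (GRCm38.p6), had 117 and 113 CPM in shYy1 libraries, against 124 and 130.4 CPM in oeCtrl libraries (log2 -0.15 ± 0.049, adjusted p = 0.0113). The shYy1 libraries were thus slightly lower than the ES control, and no call remained without the second library of either group (log2 -0.12, adjusted p = 0.14, and log2 -0.11, adjusted p = 0.122). The Yy1 call was also lost in a fit over the 16 libraries of both stages (log2 -0.15, adjusted p = 0.132). EPS shCtrl libraries held 119.9 and 115 CPM and ES oeYy1 libraries 334 and 327 CPM. Before differentiation the hairpin line had 69.03 and 69.6 CPM, against 122 and 128 CPM in ES oeCtrl (log2 -0.85 ± 0.071, adjusted p = 4.51e-09), so Yy1 RNA was lower in the hairpin line before differentiation and nearly level with both controls on day 6. The libraries labelled shYy1 are those of the line that carries the hairpin, whatever its Yy1 level on that day. Yy2, a retrogene related to Yy1, had no count in any of these libraries.

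Of 15927 genes tested, 6423 were called, which is 40.3%. Of these 3178 rose (20.0% of the genes tested) and 3245 fell (20.4%), and the median log2 fold change of all genes was 0.016. A fit over the 16 libraries of both stages called 3554 genes on day 6 and moved 38 of 70 counts of listed genes by over 1.5 times. Where it did so, its numbers of members that rose and fell are given after the list's median. Most of the calls were small: 799 genes (5.02%) were called and at least 2-fold apart, 377 of them higher and 422 lower in EPS shYy1. The 4 day 6 groups form 6 pairs, which share libraries, so their counts are given side by side. ES oeYy1 against ES oeCtrl, both of ES origin, gave 963 genes at least 2-fold apart. EPS shYy1 against ES oeYy1 gave 1625, and EPS shCtrl against ES oeYy1 1884. EPS shYy1 against EPS shCtrl, both of EPS origin, gave 2407, and EPS shCtrl against ES oeCtrl 2859. Root mean square log2 differences between single libraries were 0.567 to 0.588 between EPS shYy1 and ES oeCtrl libraries. They were 0.582 to 0.605, an overlapping range, between ES oeYy1 and ES oeCtrl libraries. Between EPS shCtrl and ES oeCtrl libraries they were 0.897 to 0.913, and between libraries of one group 0.314 to 0.388. Among the 377 genes at least 2-fold higher, EPS shCtrl stood between both groups in 166, beyond EPS shYy1 in 148 and beyond ES oeCtrl in 63. Among the 422 lower ones these numbers were 188, 190 and 44.

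**Figure D1:**
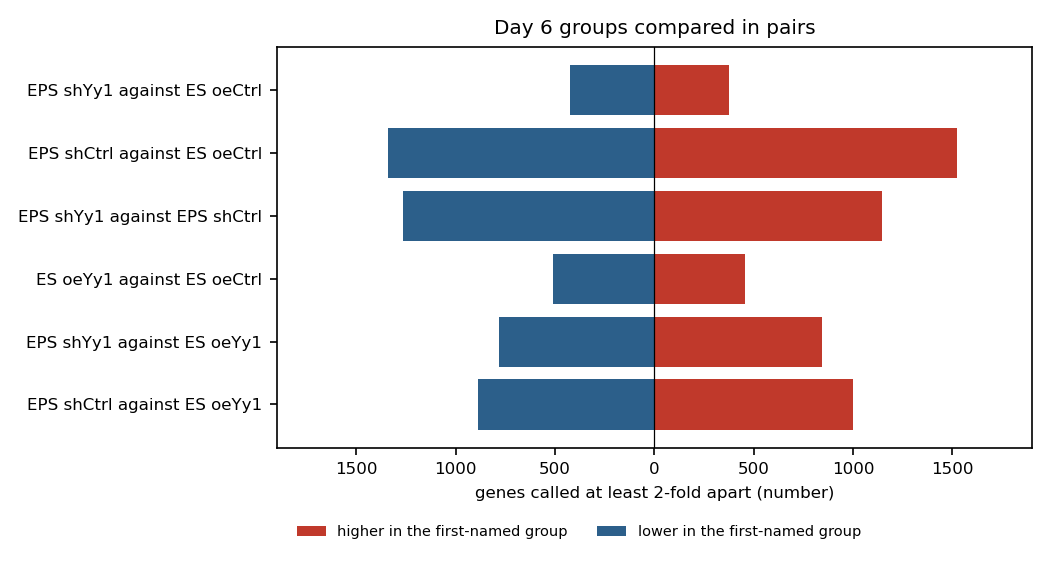
Number of genes called at least 2-fold apart (x axis) for the 6 pairs of day 6 groups, with genes higher in the first-named group to the right and lower ones to the left. EPS shYy1 against ES oeCtrl has 377 and 422 genes, and EPS shCtrl against ES oeCtrl 1521 and 1338.

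Among all genes named here Xist made the largest rise. Its level was 476 and 489.8 CPM in shYy1 libraries, against 0.678 and 0.549 CPM in oeCtrl libraries (log2 9.59 ± 0.10, adjusted p = 1.08e-59). EPS shCtrl libraries held 0.488 and 0.236 CPM and ES oeYy1 libraries 0.351 and 0.561 CPM, so among the day 6 groups the RNA was abundant in EPS shYy1 libraries alone. Xist lies on chromosome X, start 103460373, end 103483233 and is overlapped by its antisense gene Tsix, whose reads cannot be told apart from its own if strand was not used in counting. The difference was already present before differentiation, though far smaller, with 11.3 and 10.3 CPM in EPS shYy1 and 1.19 and 2.103 CPM in ES oeCtrl (log2 2.70 ± 0.85, adjusted p = 0.0313). Of 571 X-linked genes tested 282 rose and 48 fell on day 6, with a median log2 fold change of 0.32. In undifferentiated cells 454 of 638 rose and 12 fell, with a median of 0.95. X-linked genes took 4.41 and 4.37% of all counts in EPS shYy1 and 3.30 and 3.30% in ES oeCtrl on day 6. Medians of 25 Mb segments along the X ran between 0.20 and 0.38. EPS shCtrl was close to ES oeCtrl on day 6, with 3.40 and 3.40% of counts on X-linked genes and a median of 0.044 against ES oeCtrl. The X median of EPS shYy1 against EPS shCtrl was 0.26.

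Single X-linked genes of the list followed this shift to different degrees. Kdm6a, an X-linked H3K27 demethylase, had 91.98 and 86.7 CPM in shYy1 libraries, against 53.4 and 58.7 CPM in oeCtrl libraries (log2 0.68 ± 0.061, adjusted p = 4.43e-14). Kdm5c, an X-linked H3K4 demethylase, had 235 and 227 CPM in shYy1 libraries, against 198 and 192 CPM in oeCtrl libraries (log2 0.25 ± 0.044, adjusted p = 5.95e-06). Hdac6, a cytoplasmic deacetylase, had 86.2 and 89.8 CPM in shYy1 libraries, against 76.3 and 73.1 CPM in oeCtrl libraries (log2 0.23 ± 0.056, adjusted p = 0.000505) and was not called in the fit over both stages (log2 0.23, adjusted p = 0.0508). Nxf3, a member of the family of nuclear RNA export factors, had 16.2 and 16.4 CPM in shYy1 libraries, against 1.36 and 0.854 CPM in oeCtrl libraries (log2 3.85 ± 0.22, adjusted p = 3.08e-22). Rbbp7, a histone-binding subunit of several chromatin complexes, had 804 and 794 CPM in shYy1 libraries, against 496 and 504 CPM in oeCtrl libraries (log2 0.68 ± 0.041, adjusted p = 7.58e-21). The Xlr and Rhox genes are X-linked families with near-identical copies, so their values are uncertain. Of their list, 4 of 9 measured members rose (Xlr3a, Xlr3b, Xlr3c and Xlr4a) and 2 fell (Rhox6 and Rhox9) (median log2 1.04). Xlr3b had 9.67 and 9.95 CPM in shYy1 libraries, against 4.48 and 4.33 CPM in oeCtrl libraries, and Rhox9 3.87 and 3.72 CPM in shYy1 libraries, against 8.55 and 9.15 CPM in oeCtrl libraries, so the Xlr genes called were higher and the Rhox genes called lower.

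Y-linked RNA was present in both groups, and 3 of the 5 Y-linked genes tested were called, each higher in EPS shYy1. Eif2s3y, a translation initiation factor gene of the Y chromosome, had 82.6 and 81.3 CPM in shYy1 libraries, against 36.2 and 34.1 CPM in oeCtrl libraries (log2 1.22 ± 0.072, adjusted p = 2.02e-21). Uty, the Y-linked relative of Kdm6a, had 31.4 and 32.3 CPM in shYy1 libraries, against 19.4 and 19.02 CPM in oeCtrl libraries (log2 0.73 ± 0.093, adjusted p = 2.51e-09). Ddx3y, an RNA helicase gene, had 62.7 and 56.2 CPM in shYy1 libraries, against 46.2 and 51.7 CPM in oeCtrl libraries (log2 0.29 ± 0.073, adjusted p = 0.00112), and was not called without replicate 1 of EPS shYy1 (log2 0.20, adjusted p = 0.0976) or of ES oeCtrl (log2 0.21, adjusted p = 0.0703). EPS shCtrl libraries held far less of these RNAs, 6.63 and 6.52 CPM of Eif2s3y and 3.804 and 3.496 CPM of Ddx3y. Xist and Y-linked RNA were therefore high in the same EPS shYy1 libraries, and whether they came from the same cells was not tested.

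Promoters of the sex-linked genes that the results turn on were read from RefSeq (GRCm38.p6, 250 bases before to 50 bases after the annotated start). They were searched on both strands for the letters AAGATGG, the core of the YY1 motif, which is CCATCTT on the other strand. These letters occur in 6.48% of all 27025 promoters given there. Only 69.0% of the genes tested had a promoter sequence, under the 80% needed for a comparison of called genes with the others, so that comparison is void and not given. Of 116 named genes with a promoter sequence 4 hold the letters, Ino80b and the 3 sex-linked genes shown here with the match in capitals. In Xist it begins 138 bases before the start on the antisense strand, in Eif2s3y 19 bases and in Kdm5c 27 bases after the start on the sense strand. A match is a description of the sequence and not a binding site.
Xist (chrX:103483184-103483483, minus strand): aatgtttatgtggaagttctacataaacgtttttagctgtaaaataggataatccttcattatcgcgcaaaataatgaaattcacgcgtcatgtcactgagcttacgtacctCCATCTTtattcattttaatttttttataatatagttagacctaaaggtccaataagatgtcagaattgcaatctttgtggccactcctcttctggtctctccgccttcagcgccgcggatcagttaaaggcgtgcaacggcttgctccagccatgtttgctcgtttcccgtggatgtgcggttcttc
Eif2s3y (chrY:1010345-1010644, plus strand): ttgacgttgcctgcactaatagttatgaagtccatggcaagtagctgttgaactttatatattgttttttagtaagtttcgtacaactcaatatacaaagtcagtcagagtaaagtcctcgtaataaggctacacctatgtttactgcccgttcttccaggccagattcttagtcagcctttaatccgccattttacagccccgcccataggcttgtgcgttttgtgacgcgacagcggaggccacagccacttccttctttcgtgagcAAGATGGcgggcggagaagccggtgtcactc
Kdm5c (chrX:152232977-152233276, plus strand): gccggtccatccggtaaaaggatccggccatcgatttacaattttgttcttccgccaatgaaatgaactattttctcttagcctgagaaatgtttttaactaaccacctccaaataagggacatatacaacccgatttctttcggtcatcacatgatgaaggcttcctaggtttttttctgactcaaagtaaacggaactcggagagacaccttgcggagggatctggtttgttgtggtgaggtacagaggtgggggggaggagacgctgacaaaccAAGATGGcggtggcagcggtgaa

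Besides the sex chromosomes, chromosomes 6 and 8 stood apart along their whole length. On chromosome 6, 422 of 767 genes fell and 26 rose, with a median log2 fold change of -0.37. On chromosome 8, 529 of 799 fell and 15 rose, with a median of -0.42. Medians of the other 17 autosomes lay between -0.089 and 0.067. Every 25 Mb segment of chromosomes 6 and 8 had a negative median, between -0.27 and -0.48. Chromosome 8 took 4.45 and 4.48% of all counts in EPS shYy1 and 6.00 and 5.97% in ES oeCtrl, and chromosome 6 took 5.34 and 5.32% in EPS shYy1 and 6.91 and 6.94% in ES oeCtrl. The same chromosomes were low before differentiation, with medians of -0.39 and -0.53, and in EPS shCtrl against ES oeCtrl on day 6, with medians of -0.33 and -0.41. Copy number was not measured here. Genes of chromosomes 6, 8, X and Y made up 1325 of the 6423 calls (20.6%), and the part of the chromosome in their difference was not tested. The chromosome is therefore named below for genes on them that are described with levels, but not for all members named in brackets. Some changed about as much as the median of their chromosome, such as Peg10 (log2 -0.36) on chromosome 6 and Flna (log2 0.33) on the X. Others changed more, such as Nanog (log2 -1.76) on chromosome 6. With these 4 chromosomes left out of scaling and testing, an alternative added after the data were seen, 5005 genes were called, 2485 of them higher and 2520 lower.

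**Figure D2:**
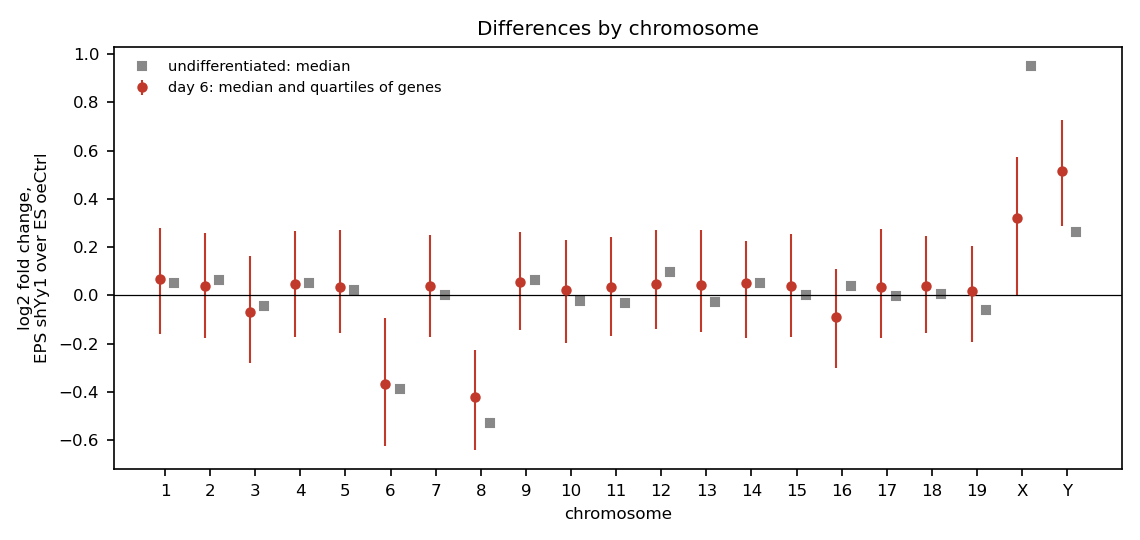
Median log2 fold change of EPS shYy1 over ES oeCtrl (y axis) for the genes of each chromosome (x axis). Circles with lines show the day 6 median and quartiles and squares the undifferentiated median: chromosomes 6 and 8 lie at -0.37 and -0.42 on day 6, and the X at 0.32 on day 6 and 0.95 before.

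Most imprinted genes listed were called, more of them higher than lower. Of the 30 measured, 19 rose and 8 fell, against 20.0% and 20.4% of all genes tested, and their median log2 fold change was 0.38 against 0.016. Directions were not uniform within imprinted regions, where genes of maternal and paternal expression lie side by side. Without chromosomes 6, 8, X and Y 16 rose and 6 fell. In the fit over both stages 11 rose and 3 fell.

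On distal chromosome 7, Igf2 and H19 moved apart. Igf2, the paternally expressed fetal growth factor, had 1566 and 1629.9 CPM in shYy1 libraries, against 256 and 250.2 CPM in oeCtrl libraries (log2 2.66 ± 0.044, adjusted p = 3.32e-49; chromosome 7, start 142650768, end 142666816). H19, the maternally expressed noncoding RNA beside it, had 257 and 262 CPM in shYy1 libraries, against 469.6 and 451 CPM in oeCtrl libraries (log2 -0.83 ± 0.051, adjusted p = 1.96e-16). EPS shCtrl libraries were close to EPS shYy1 in Igf2, with 1416 and 1441 CPM, but held 601 and 609.6 CPM of H19. Igf2os, which overlaps Igf2 on the other strand, also rose (log2 2.41 ± 0.13, adjusted p = 1.1e-20), and its reads cannot be told apart from those of Igf2 if strand was not used. Further along the region Cdkn1c, a maternally expressed inhibitor of cyclin-dependent kinases, had 50.7 and 50.5 CPM in shYy1 libraries, against 17.2 and 12.4 CPM in oeCtrl libraries (log2 1.76 ± 0.09, adjusted p = 4.7e-23). Phlda2, a maternally expressed gene that restrains placental growth, had 38.5 and 38.3 CPM in shYy1 libraries, against 21.1 and 18.8 CPM in oeCtrl libraries (log2 0.94 ± 0.079, adjusted p = 2.63e-15). Kcnq1ot1, the paternally expressed noncoding RNA of that cluster, rose by 0.55, so maternally and paternally expressed members rose together there.

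Grb10, an adaptor that restrains insulin and growth factor signalling, made the largest imprinted fall, with 14.9 and 15.6 CPM in shYy1 libraries, against 132 and 131 CPM in oeCtrl libraries (log2 -3.10 ± 0.064, adjusted p = 2.97e-44; chromosome 11, start 11930499, end 12037428). EPS shCtrl libraries held 523 and 511 CPM and ES oeYy1 libraries 150.5 and 149.9 CPM, so EPS shYy1 was the lowest of the 4 day 6 groups. Igf2r, the maternally expressed receptor that clears IGF2, had 319 and 319.9 CPM in shYy1 libraries, against 155 and 161 CPM in oeCtrl libraries (log2 1.02 ± 0.044, adjusted p = 2.72e-27). Its antisense RNA Airn, named after its values were seen, had 16.4 and 18.8 CPM in shYy1 libraries, against 5.005 and 7.87 CPM in oeCtrl libraries, and their shared reads cannot be told apart without strand. In the Dlk1 and Meg3 region the maternally expressed noncoding RNAs rose. Meg3 had 358 and 357 CPM in shYy1 libraries, against 164 and 161 CPM in oeCtrl libraries (log2 1.14 ± 0.045, adjusted p = 1.86e-29). Rian had 295 and 288 CPM in shYy1 libraries, against 194 and 206 CPM in oeCtrl libraries and Mirg 14.3 and 14.8 CPM in shYy1 libraries, against 10.6 and 9.39 CPM in oeCtrl libraries (log2 0.54 and 0.53). Dlk1, the paternally expressed Notch-like ligand of the region, fell by 0.33 on the log2 scale, and Rtl1 was not called.

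The Peg3 region on proximal chromosome 7 was higher in EPS shYy1. Peg3, a paternally expressed zinc finger gene, had 2155 and 2121 CPM in shYy1 libraries, against 1340.1 and 1377 CPM in oeCtrl libraries (log2 0.65 ± 0.04, adjusted p = 1.07e-20). Usp29 rose by 0.76 and Zim1 by 0.86 on the log2 scale. Nnat, a neuronal proteolipid gene, rose by 0.56. Lower in EPS shYy1 were Magel2, with 1.57 and 1.798 CPM in shYy1 libraries, against 6.26 and 5.61 CPM in oeCtrl libraries (log2 -1.82 ± 0.23, adjusted p = 3.08e-09), Plagl1, a zinc finger regulator of other imprinted genes (log2 -0.46), and Ndn (log2 -0.32). On chromosome 6, Peg10, a retrotransposon-derived gene that the placenta needs, had 6229.6 and 6259.6 CPM in shYy1 libraries, against 7929 and 8142 CPM in oeCtrl libraries (log2 -0.36 ± 0.039, adjusted p = 1.11e-11), and this call was lost in the fit over both stages (log2 -0.36, adjusted p = 0.652).

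**Figure D3:**
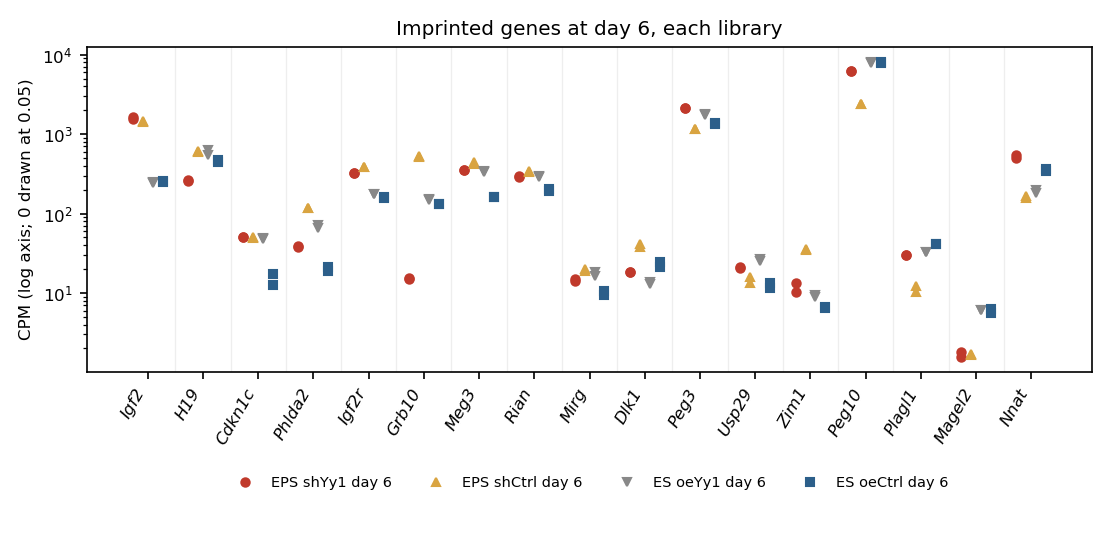
CPM (log y axis) of 17 imprinted genes (x axis) in each of the 8 day 6 libraries, coloured by group. Igf2 is high in both EPS groups and low in both ES groups, while Grb10 is lowest in EPS shYy1, at 14.9 and 15.6 CPM.

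Pluripotency genes were lower in EPS shYy1. These transcription factors and associated proteins hold ES cells in the undifferentiated state. Of the naive list 3 of 20 measured members rose (Tbx3, Stat3 and Socs3) and 12 fell (median log2 -1.46; 1 and 10 in the fit over both stages), and of the core list 0 of 12 measured members rose and 10 fell (median log2 -0.59). Without chromosomes 6, 8, X and Y 2 rose and 8 fell in the naive list and 0 rose and 9 fell in the core list. Sox2, a core factor that is also a neural gene, had 11.7 and 11.2 CPM in shYy1 libraries, against 38.9 and 38.1 CPM in oeCtrl libraries (log2 -1.75 ± 0.10, adjusted p = 7.52e-23). Pou5f1 (Oct4), the core factor of pluripotent cells, had 37.1 and 33.7 CPM in shYy1 libraries, against 70.5 and 66.5 CPM in oeCtrl libraries (log2 -0.95 ± 0.072, adjusted p = 6.88e-17). Utf1, a chromatin-bound pluripotency factor, had 16.2 and 14.4 CPM in shYy1 libraries, against 60.6 and 56.4 CPM in oeCtrl libraries (log2 -1.93 ± 0.086, adjusted p = 8.77e-27). EPS shCtrl libraries were near EPS shYy1 in these genes, with 14.05 and 13.1 CPM of Sox2, 30.97 and 34.2 CPM of Pou5f1 and 10.4 and 9.78 CPM of Utf1. L1td1, an RNA-binding protein of ES cells, fell less steeply, to 117 and 116 CPM in shYy1 libraries, against 191 and 197 CPM in oeCtrl libraries (log2 -0.74 ± 0.051, adjusted p = 1.27e-18).

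Naive factors showed larger relative differences at lower levels. Esrrb, an orphan nuclear receptor, had 2.404 and 3.02 CPM in shYy1 libraries, against 20.02 and 22.8 CPM in oeCtrl libraries (log2 -2.99 ± 0.19, adjusted p = 2.48e-15). Dppa5a, an RNA-binding protein of pluripotent cells, had 8.31 and 8.15 CPM in shYy1 libraries, against 47.9 and 39.5 CPM in oeCtrl libraries (log2 -2.41 ± 0.11, adjusted p = 5.07e-26). Klf4, a Krüppel-like factor, had 12.5 and 12.2 CPM in shYy1 libraries, against 24.7 and 24.1 CPM in oeCtrl libraries (log2 -0.98 ± 0.11, adjusted p = 2.15e-11). Nanog on chromosome 6 and Zfp42 on chromosome 8 fell too. Nanog had 11.1 and 9.57 CPM in shYy1 libraries, against 35.3 and 35.2 CPM in oeCtrl libraries (log2 -1.76 ± 0.10, adjusted p = 7.93e-22), and Zfp42, a relative of Yy1 that marks naive cells, had 6.79 and 5.26 CPM in shYy1 libraries, against 21.7 and 21.5 CPM in oeCtrl libraries (log2 -1.82 ± 0.14, adjusted p = 2.64e-17). The medians of chromosomes 6 and 8 were -0.37 and -0.42, and their part in these 2 falls was not tested. Stat3, which carries the LIF signal, went the other way, with 116 and 115 CPM in shYy1 libraries, against 80.03 and 81.9 CPM in oeCtrl libraries (log2 0.51 ± 0.054, adjusted p = 7.4e-12), and Tbx3 also rose by 0.33. Klf2 (on chromosome 8), Klf5 and Tfcp2l1 were not called, with log2 fold changes of 0.076, -0.076 and 0.10. Tdh, the threonine dehydrogenase that mouse ES cells depend on, made the largest fall of all named genes, with 0.47 and 0.257 CPM in shYy1 libraries, against 11.1 and 12.99 CPM in oeCtrl libraries (log2 -4.98 ± 0.31, adjusted p = 3.5e-20).

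**Figure D4:**
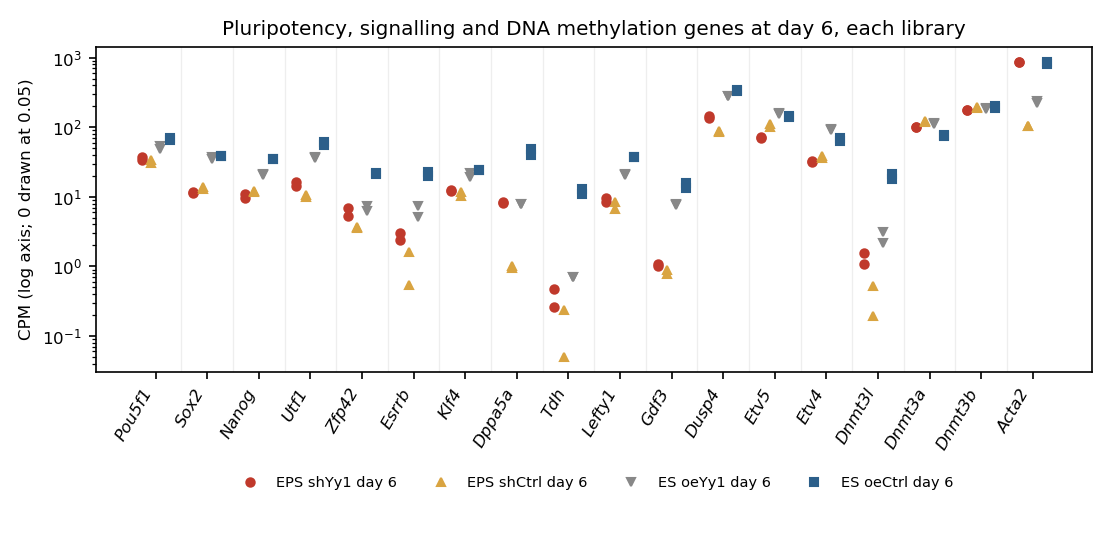
CPM (log y axis, 0 drawn at 0.05) of 18 genes (x axis) in each of the 8 day 6 libraries, coloured by group. The pluripotency, Nodal and ERK genes shown and Dnmt3l are lower in EPS shYy1 than in ES oeCtrl. Not all members of these lists fell: Stat3, Tbx3, Socs3, Fos and Ier3 rose. Acta2 stands at 872 and 868 CPM in EPS shYy1, close to 866 and 821 CPM in ES oeCtrl, and is far lower in EPS shCtrl and ES oeYy1.

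Most called genes of the formative and primed epiblast, of Nodal and of ERK signalling were lower as well. Of the formative list 3 of 17 measured members rose (Otx2, Dnmt3a and Cer1) and 12 fell (median log2 -0.36; 3 and 7 in the fit over both stages). Of the Nodal and activin list 1 of 14 measured members rose (Cfc1) and 10 fell (median log2 -0.41). Lefty1, a secreted Nodal inhibitor and Nodal target, had 8.36 and 9.63 CPM in shYy1 libraries, against 37.6 and 37.1 CPM in oeCtrl libraries (log2 -2.06 ± 0.11, adjusted p = 1.2e-23). Its neighbour Lefty2 had 13.9 and 13.4 CPM in shYy1 libraries, against 25.8 and 25.5 CPM in oeCtrl libraries (log2 -0.91 ± 0.10, adjusted p = 1.25e-11). Gdf3, a TGF-beta family ligand on chromosome 6, had 1.098 and 1.03 CPM in shYy1 libraries, against 15.7 and 13.2 CPM in oeCtrl libraries (log2 -3.75 ± 0.21, adjusted p = 3.8e-22), and Fst, which binds and blocks activin, 15.3 and 15.8 CPM in shYy1 libraries, against 30.6 and 27.7 CPM in oeCtrl libraries (log2 -0.91 ± 0.094, adjusted p = 4.62e-12). Smad7, an inhibitor induced by TGF-beta signalling, had 67.5 and 72.99 CPM in shYy1 libraries, against 106 and 108 CPM in oeCtrl libraries (log2 -0.61 ± 0.057, adjusted p = 1.14e-13). These Nodal pathway genes were each lower in EPS shYy1, while Cer1, a secreted Nodal inhibitor of the formative list, rose.

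Of the ERK list, which holds feedback inhibitors and early targets of the kinase, 2 of 19 measured members rose (Fos and Ier3) and 14 fell (median log2 -0.58; 0 and 14 in the fit over both stages), and both directions were similar without chromosomes 6, 8, X and Y (2 rose and 12 fell). Etv4 and Etv5 are ETS factors induced by FGF signalling. Etv5 had 72.3 and 70.7 CPM in shYy1 libraries, against 142 and 143 CPM in oeCtrl libraries (log2 -0.99 ± 0.053, adjusted p = 3.55e-23), and Etv4 32.04 and 32.9 CPM in shYy1 libraries, against 69.8 and 63.7 CPM in oeCtrl libraries (log2 -1.04 ± 0.069, adjusted p = 2.64e-19). Dusp6, an ERK phosphatase, had 104 and 98.9 CPM in shYy1 libraries, against 185 and 181 CPM in oeCtrl libraries (log2 -0.85 ± 0.056, adjusted p = 1.77e-15). Dusp4, a related phosphatase on chromosome 8, had 137 and 143 CPM in shYy1 libraries, against 336 and 339 CPM in oeCtrl libraries (log2 -1.27 ± 0.045, adjusted p = 2.35e-31). The inhibitor Spry4 fell by 1.20 and Spry2 by 0.60 on the log2 scale. Myc fell to 75.1 and 71.5 CPM in shYy1 libraries, against 112 and 108 CPM in oeCtrl libraries. Fos, an immediate early factor, had 59.3 and 61.4 CPM in shYy1 libraries, against 50.99 and 47.9 CPM in oeCtrl libraries (log2 0.28 ± 0.059, adjusted p = 7.82e-05), and Egr1 was not called, with 62.1 and 57.6 CPM in shYy1 libraries, against 61.9 and 69.6 CPM in oeCtrl libraries. One riser remained without replicate 1 of ES oeCtrl or replicate 2 of EPS shYy1, and by DESeq2.

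Other signalling lists were more mixed. The share called was 75% for the Wnt and the BMP list, 64.3% for retinoic acid and 42.9% for Notch. It was 40.3% over all genes tested, so the Notch share was near that of all genes. Of the Wnt targets 4 of 16 measured members rose (Notum, Rnf43, Znrf3 and Bmp4) and 8 fell (median log2 -0.27; 2 and 3 in the fit over both stages), with 2 risers left without replicate 1 of ES oeCtrl. Notum, an extracellular Wnt inhibitor, had 13.6 and 12.5 CPM in shYy1 libraries, against 7.35 and 5.55 CPM in oeCtrl libraries (log2 1.01 ± 0.14, adjusted p = 1.25e-08), and Sp5, a direct Wnt target, 38.99 and 41.9 CPM in shYy1 libraries, against 58.2 and 58.4 CPM in oeCtrl libraries (log2 -0.53 ± 0.065, adjusted p = 7.87e-10), a call lost in the fit over both stages (log2 -0.53, adjusted p = 0.661). Of the BMP list 8 of 16 measured members rose and 4 fell (Id1, Id2, Smad7 and Gata2) (median log2 0.32). Bmp4 itself had 156 and 162 CPM in shYy1 libraries, against 111 and 114 CPM in oeCtrl libraries (log2 0.50 ± 0.047, adjusted p = 2.13e-13), and its target Msx2 rose by 0.55. Gata2, on chromosome 6, fell by 0.88. Of the retinoic acid list 7 of 14 measured members rose and 2 fell (Aldh1a3 and Stra6) (median log2 0.27; 4 and 1 in the fit over both stages), and the 2 that fell depended on single libraries, with none left without replicate 2 of EPS shYy1. Aldh1a2, the enzyme that makes retinoic acid in the embryo, had 13.8 and 15.5 CPM in shYy1 libraries, against 7.19 and 6.04 CPM in oeCtrl libraries (log2 1.13 ± 0.14, adjusted p = 8.45e-10). Of the Notch list 1 of 14 measured members rose (Notch1) and 5 fell (Notch2, Notch3, Notch4, Jag1 and Hes1) (median log2 -0.20; 0 and 2 in the fit over both stages), where Notch3 fell by 0.22 and Notch4 by 0.72, and 3 fell without replicate 1 of EPS shYy1.

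Among the genes of DNA methylation 3 of 18 measured members rose and 12 fell (median log2 -0.16; 2 and 5 in the fit over both stages). Without chromosomes 6, 8, X and Y 2 rose and 9 fell. The list's de novo enzymes did not share a direction. Dnmt3l, the catalytically inactive partner of the de novo methyltransferases, had 1.57 and 1.09 CPM in shYy1 libraries, against 18.3 and 21.2 CPM in oeCtrl libraries (log2 -3.86 ± 0.21, adjusted p = 2.37e-23; chromosome 10, start 78042287, end 78063622). Dnmt3a, a de novo methyltransferase, had 99.1 and 101 CPM in shYy1 libraries, against 75.6 and 77.2 CPM in oeCtrl libraries (log2 0.39 ± 0.054, adjusted p = 1.94e-08). Dnmt3b differed little, with 175 and 176 CPM in shYy1 libraries, against 199 and 189.6 CPM in oeCtrl libraries (log2 -0.15 ± 0.046, adjusted p = 0.00681), and was not called without replicate 1 of EPS shYy1 (log2 -0.14, adjusted p = 0.0601) or of ES oeCtrl (log2 -0.11, adjusted p = 0.119). The Dnmt3b call was also lost in the fit over both stages (log2 -0.15, adjusted p = 0.690). Uhrf1, which guides maintenance methylation to newly copied DNA, had 152 and 157 CPM in shYy1 libraries, against 228 and 228 CPM in oeCtrl libraries (log2 -0.56 ± 0.046, adjusted p = 6.58e-16). Tet1, which oxidises methylcytosine, fell by 0.55, and Trim28, a corepressor that protects imprints, by 0.33. Zfp57, which recognises methylated imprint control regions, was not called (log2 -0.031 ± 0.054, adjusted p = 0.683, with overlapping libraries).

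Germline genes that DNA methylation keeps silent were scarce on day 6: 14 of the 23 listed did not pass the filter on low counts. Ddx4, a germ cell RNA helicase, had 3.71 and 5.33 CPM in shYy1 libraries, against 14.2 and 13.9 CPM in oeCtrl libraries (log2 -1.65 ± 0.16, adjusted p = 8.37e-13). Tdrd1, a tudor protein of the piRNA pathway, had 4.13 and 2.504 CPM in shYy1 libraries, against 6.57 and 6.04 CPM in oeCtrl libraries (log2 -0.90 ± 0.21, adjusted p = 0.000327). Of the 9 measured, 6 fell and none rose, a count that the filter can set, since a scarce gene passes through the group where it is higher. Mov10l1 and Piwil2 stood below 2 CPM in each library. One gene rose without replicate 1 of ES oeCtrl. Dppa3, a germ cell and naive gene on chromosome 6, had 0.157 and 0.193 CPM in shYy1 libraries, against 2.76 and 4.08 CPM in oeCtrl libraries (log2 -4.24 ± 0.48, adjusted p = 7.67e-11), a call lost in the fit over both stages (log2 -4.23, adjusted p = 0.0529).

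Smooth muscle genes were high in both groups. Acta2, smooth muscle actin, had 872 and 868 CPM in shYy1 libraries, against 866 and 821 CPM in oeCtrl libraries and was not called (log2 0.046 ± 0.042, adjusted p = 0.413), whereas EPS shCtrl libraries held 105 and 103 CPM and ES oeYy1 libraries 224 and 241 CPM. The summed level of the contractile list was 17462 and 17386 CPM in EPS shYy1 and 17017 and 16587 CPM in ES oeCtrl, against 7430 and 7518 CPM in EPS shCtrl. Within the list 3 of 20 measured members rose (Tpm1, Tpm2 and Flna) and 10 fell (median log2 -0.082). The same 20 genes gave 1 riser and 18 fallers in EPS shCtrl against ES oeCtrl, where 64.1% of all genes were called. In EPS shYy1 against EPS shCtrl, where 61.3% were called, they gave 18 risers and 1 faller. These comparisons share libraries with the one described. Smtn, smoothelin, had 66.5 and 69.2 CPM in shYy1 libraries, against 109.7 and 106 CPM in oeCtrl libraries (log2 -0.67 ± 0.056, adjusted p = 2.56e-15). Cyr61, a matricellular target of YAP and SRF, had 423 and 426 CPM in shYy1 libraries, against 791 and 764 CPM in oeCtrl libraries (log2 -0.87 ± 0.042, adjusted p = 1.64e-25). Tpm1, a tropomyosin, rose by 0.30, and Flna, an X-linked actin crosslinker, rose to 4094 and 4100.5 CPM in shYy1 libraries, against 3308 and 3204 CPM in oeCtrl libraries (log2 0.33 ± 0.04, adjusted p = 6.35e-10).

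Fibroblast and epithelial genes differed in both directions. Of the fibroblast and feeder list 10 of 22 measured members rose and 6 fell (median log2 0.11; 4 and 5 in the fit over both stages). Col1a1, the main fibrillar collagen, was level, with 317 and 331 CPM in shYy1 libraries, against 326 and 323 CPM in oeCtrl libraries (log2 -0.004 ± 0.044, adjusted p = 0.958), and the libraries overlapped; the sign of this small difference turned under 3 alternatives. Postn, periostin, had 11.7 and 12.1 CPM in shYy1 libraries, against 2.92 and 3.96 CPM in oeCtrl libraries (log2 1.80 ± 0.17, adjusted p = 3.34e-13). Mmp2, a matrix metalloproteinase on chromosome 8, had 45.9 and 46.8 CPM in shYy1 libraries, against 81.7 and 79.1 CPM in oeCtrl libraries (log2 -0.80 ± 0.06, adjusted p = 5.7e-17). Of the mesenchymal switch list 7 of 17 measured members rose and 2 fell (Cdh2 and Mmp2) (median log2 0.16; 5 and 1 in the fit over both stages), with 1 faller left under 9 of the 12 alternatives, among them those without either EPS shYy1 library or replicate 2 of ES oeCtrl. Tgfb2, a TGF-beta ligand, had 195 and 197 CPM in shYy1 libraries, against 113 and 118 CPM in oeCtrl libraries (log2 0.77 ± 0.049, adjusted p = 5.13e-20). Of the epithelial list 11 of 22 measured members rose and 2 fell (Cdh1 and Epcam) (median log2 0.11; 5 and 1 in the fit over both stages), with 1 faller left without either EPS shYy1 library or replicate 2 of ES oeCtrl. Cldn3, a tight junction claudin, had 47.9 and 53.4 CPM in shYy1 libraries, against 27.2 and 27.7 CPM in oeCtrl libraries (log2 0.88 ± 0.078, adjusted p = 2.21e-14), and Krt7, a simple epithelial keratin, 163 and 167 CPM in shYy1 libraries, against 119 and 109 CPM in oeCtrl libraries (log2 0.53 ± 0.051, adjusted p = 3.39e-13). Cdh1, E-cadherin, on chromosome 8, fell to 1411 and 1380.5 CPM in shYy1 libraries, against 1677 and 1687 CPM in oeCtrl libraries (log2 -0.27 ± 0.04, adjusted p = 1.17e-07). Cdh2, N-cadherin, had 120.0 and 121 CPM in shYy1 libraries, against 124 and 139 CPM in oeCtrl libraries, and its call (log2 -0.12 ± 0.05, adjusted p = 0.0484) was lost by DESeq2, in the fit with a replicate block (log2 -0.12, adjusted p = 0.0571) and without 3 of the 4 libraries in turn.

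Several endoderm regulators were higher in EPS shYy1. Of the primitive and visceral endoderm list 10 of 24 measured members rose and 6 fell (median log2 -0.029; 6 and 5 in the fit over both stages). Gata4, a zinc finger factor of primitive endoderm and heart, had 19.4 and 19.6 CPM in shYy1 libraries, against 11.4 and 9.999 CPM in oeCtrl libraries (log2 0.87 ± 0.11, adjusted p = 1.37e-09). Gata6, its partner, had 13.1 and 12.5 CPM in shYy1 libraries, against 6.41 and 7.07 CPM in oeCtrl libraries (log2 0.93 ± 0.14, adjusted p = 7.48e-08). Pdgfra, a receptor on primitive endoderm and mesenchyme, had 15.7 and 13.3 CPM in shYy1 libraries, against 7.87 and 8.47 CPM in oeCtrl libraries (log2 0.84 ± 0.12, adjusted p = 4.45e-08). EPS shCtrl libraries held more of these, with 47.3 and 50.2 CPM of Gata4 and 60.5 and 65.7 CPM of Pdgfra. Sox17 had 3.61 and 4.37 CPM in shYy1 libraries, against 2.35 and 2.500 CPM in oeCtrl libraries (log2 0.71 ± 0.23, adjusted p = 0.0114) and lost its call by DESeq2 and without replicate 1 of ES oeCtrl or replicate 2 of EPS shYy1 (log2 0.66, adjusted p = 0.0858, and log2 0.58, adjusted p = 0.113). The Sox17 call was lost in the fit over both stages too (log2 0.71, adjusted p = 0.0599). Sparc, a secreted matrix protein, had 1496 and 1481 CPM in shYy1 libraries, against 1121 and 1073 CPM in oeCtrl libraries (log2 0.44 ± 0.04, adjusted p = 7.04e-14). Col4a1, a basement membrane collagen on chromosome 8, fell by 0.29, a call lost in the fit over both stages. The visceral endoderm genes Hnf4a, Afp, Ttr and Apoa1 stayed under 1 CPM in all 4 libraries.

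Of the trophoblast list 8 of 20 measured members rose and 7 fell (median log2 -0.14; 6 and 2 in the fit over both stages). Esx1, an X-linked homeobox gene of the placenta, had 40.2 and 44.6 CPM in shYy1 libraries, against 20.9 and 22.1 CPM in oeCtrl libraries (log2 0.98 ± 0.09, adjusted p = 7e-14). Cdx2, a homeobox factor of trophectoderm and hindgut, had 22.2 and 23.1 CPM in shYy1 libraries, against 32.9 and 31.6 CPM in oeCtrl libraries (log2 -0.52 ± 0.083, adjusted p = 6.87e-07), lost in the fit over both stages (log2 -0.51, adjusted p = 0.259). Eomes, shared by trophoblast and mesendoderm, was not called, with 65.3 and 65.3 CPM in shYy1 libraries, against 70.5 and 71.5 CPM in oeCtrl libraries (log2 -0.12 ± 0.059, adjusted p = 0.104), but was called lower once chromosomes 6, 8, X and Y were left out (log2 -0.15, adjusted p = 0.0478). Elf5 and Prl3d1 stayed under 1 CPM in both groups and Tpbpa had no count, which makes 3 of the 13 trophoblast markers chosen. All 13 summed to 418 and 426 CPM in EPS shYy1 and 359 and 352 CPM in ES oeCtrl. In undifferentiated cells they summed to 207 and 188 CPM in EPS shYy1 and 192 and 194 CPM in ES oeCtrl.

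Of the mesendoderm list 4 of 20 measured members rose (Lhx1, Cer1, Bmp4 and Hand1) and 8 fell (median log2 -0.13; 4 and 3 in the fit over both stages), with 5 fallers without replicate 1 of ES oeCtrl. T (brachyury), the mesoderm factor of the primitive streak, had 107 and 113 CPM in shYy1 libraries, against 231 and 224 CPM in oeCtrl libraries (log2 -1.04 ± 0.049, adjusted p = 1.11e-25). Evx1, a posterior streak homeobox gene on chromosome 6, had 15.7 and 16.5 CPM in shYy1 libraries, against 39.4 and 39.2 CPM in oeCtrl libraries (log2 -1.29 ± 0.083, adjusted p = 8.17e-20). Lhx1, a LIM homeobox factor of anterior mesendoderm, rose instead, with 29.1 and 31.5 CPM in shYy1 libraries, against 16.9 and 17.5 CPM in oeCtrl libraries (log2 0.81 ± 0.088, adjusted p = 1.59e-11). Streak genes were highest elsewhere, with 309 and 343 CPM of T in ES oeYy1 libraries and 132 and 118 CPM of Lhx1 in EPS shCtrl libraries. Of the neural list 4 of 18 measured members rose (Pax6, Otx2, En1 and Stmn2) and 8 fell (median log2 -0.21; 1 and 5 in the fit over both stages), with 2 risers without replicate 1 of ES oeCtrl. Nes, the intermediate filament of neural progenitors, had 268 and 273 CPM in shYy1 libraries, against 338 and 334 CPM in oeCtrl libraries (log2 -0.31 ± 0.043, adjusted p = 1.69e-08), and Tubb3, a neuronal tubulin on chromosome 8, 43.2 and 49.4 CPM in shYy1 libraries, against 77.8 and 73.5 CPM in oeCtrl libraries (log2 -0.71 ± 0.07, adjusted p = 8.6e-13). Of the endothelial and blood list 1 of 12 measured members rose (Flt1) and 5 fell (Pecam1, Cdh5, Tek, Runx1 and Lmo2) (median log2 -0.32; 1 and 3 in the fit over both stages). Flt1, a VEGF receptor, had 103 and 96.5 CPM in shYy1 libraries, against 64.5 and 64.6 CPM in oeCtrl libraries (log2 0.63 ± 0.059, adjusted p = 1.43e-13), while Cdh5, the defining endothelial cadherin, on chromosome 8, had 0.575 and 1.28 CPM in shYy1 libraries, against 4.796 and 4.21 CPM in oeCtrl libraries (log2 -2.32 ± 0.31, adjusted p = 8.19e-09). The fold of Cdh5 moved by over 1.5 times without replicate 2 of EPS shYy1 (log2 -2.95, adjusted p = 2.14e-08). Of the list's 5 fallers 3 remained without replicate 2 of EPS shYy1. Of the cardiac list 3 of 14 measured members rose (Myh7, Tnnc1 and Hcn4) and 2 fell (Tnnt2 and Tbx5) (median log2 0.023, with 3 and 0 in the fit over both stages). The share called in the cardiac list was 35.7%, below the 40.3% of all genes tested. Myh7, a slow myosin heavy chain, had 37.8 and 37.4 CPM in shYy1 libraries, against 23.9 and 23.4 CPM in oeCtrl libraries (log2 0.67 ± 0.10, adjusted p = 2.11e-07). Hcn4 was not called without replicate 1 or 2 of ES oeCtrl (log2 1.69, adjusted p = 0.0727, and log2 1.69, adjusted p = 0.0616) or without replicate 2 of EPS shYy1 (log2 1.27, adjusted p = 0.18), with 2 risers in each case. No faller of this list was called by DESeq2, without either ES oeCtrl library or without replicate 1 of EPS shYy1.

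Proliferation and stress genes shifted modestly. Of the G2/M list 0 of 22 measured members rose and 14 fell (median log2 -0.18; 0 and 7 in the fit over both stages). Cdc20, an activator of the anaphase-promoting complex, had 201 and 208 CPM in shYy1 libraries, against 297 and 281 CPM in oeCtrl libraries (log2 -0.50 ± 0.045, adjusted p = 5.58e-14), and Ccna2, cyclin A2, 150.1 and 148 CPM in shYy1 libraries, against 203 and 205 CPM in oeCtrl libraries (log2 -0.45 ± 0.046, adjusted p = 2.04e-12). Of the p53 targets 8 of 20 measured members rose and 4 fell (Pmaip1, Bax, Gtse1 and Aen) (median log2 0.058; 5 and 1 in the fit over both stages), with 5 risers without chromosomes 6, 8, X and Y. Cdkn1a (p21), the cell cycle inhibitor that p53 induces, had 350.5 and 361 CPM in shYy1 libraries, against 249 and 249 CPM in oeCtrl libraries (log2 0.52 ± 0.045, adjusted p = 1.29e-14). Perp, a p53 effector and desmosome protein, had 534 and 538 CPM in shYy1 libraries, against 382 and 402 CPM in oeCtrl libraries (log2 0.45 ± 0.042, adjusted p = 1.39e-13). Of the interferon and antigen presentation list 12 of 25 measured members rose and 5 fell (Bst2, H2-K1, Nlrc5, Ifitm1 and Ifitm3) (median log2 0.17; 8 and 1 in the fit over both stages), with 2 fallers without replicate 1 of EPS shYy1. B2m, the light chain of MHC class I, had 129 and 122 CPM in shYy1 libraries, against 96.97 and 101 CPM in oeCtrl libraries (log2 0.35 ± 0.052, adjusted p = 9.44e-08), and the antiviral membrane protein gene Ifitm3 156 and 154 CPM in shYy1 libraries, against 245 and 209.6 CPM in oeCtrl libraries (log2 -0.56 ± 0.066, adjusted p = 1.8e-06).

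Metabolic lists were called to different degrees, against 40.3% of all genes tested. The share called was 61.9% for glycolysis, 58.3% for cholesterol synthesis, 23.1% for the mitochondrial genome and 34% for cytosolic ribosomal proteins. Of the glycolysis list 7 of 21 measured members rose and 6 fell (median log2 0.012; 3 and 3 in the fit over both stages). Hk2 and Gapdh lie on chromosome 6. Hk2, a hexokinase, had 138 and 139 CPM in shYy1 libraries, against 277 and 262 CPM in oeCtrl libraries (log2 -0.97 ± 0.046, adjusted p = 1.9e-25), and Gapdh 1835 and 1882 CPM in shYy1 libraries, against 2693 and 2537 CPM in oeCtrl libraries (log2 -0.49 ± 0.041, adjusted p = 2.09e-15). Slc2a1, the main glucose transporter, on chromosome 4, had 2243 and 2226 CPM in shYy1 libraries, against 1610.5 and 1542 CPM in oeCtrl libraries (log2 0.50 ± 0.04, adjusted p = 3.41e-16). Without chromosomes 6, 8, X and Y 5 rose and 3 fell in this list. Of cholesterol synthesis 12 of 24 measured members rose and 2 fell (median log2 0.13; 5 and 0 in the fit over both stages), with between 1 and 4 fallers across the alternatives run on the 8 or the 4 day 6 libraries. Nsdhl, an X-linked sterol dehydrogenase, rose by 0.67, and Fdft1, squalene synthase, had 153 and 156 CPM in shYy1 libraries, against 130.2 and 126 CPM in oeCtrl libraries (log2 0.27 ± 0.049, adjusted p = 7.69e-06). Of the mitochondrial genome 3 of 13 measured members rose (mt-Nd4l, mt-Nd6 and mt-Co3) and 0 fell (median log2 0.11; 0 and 0 in the fit over both stages), and none was called by DESeq2 or without replicate 2 of ES oeCtrl. Of cytosolic ribosomal proteins 8 of 53 measured members rose and 10 fell (median log2 -0.047; 3 and 3 in the fit over both stages), with between 4 and 16 fallers and 3 and 12 risers across these alternatives, the fewest fallers without replicate 1 and the fewest risers without replicate 2 of ES oeCtrl.

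Chromatin genes and developmental gene clusters were called to different degrees, against 40.3% of all genes tested. The share called was 45.5% for PRC2, 50% for INO80, 25% for the Hox genes and 10% for the clustered protocadherins. Of PRC2, the complex that deposits H3K27me3, 1 of 11 measured members rose (Rbbp7) and 4 fell (Ezh2, Jarid2, Phf19 and Aebp2) (median log2 -0.095), and without chromosomes 6, 8, X and Y 0 rose and 2 fell. Ezh2, its methyltransferase, on chromosome 6, had 82.4 and 81.98 CPM in shYy1 libraries, against 129.9 and 137 CPM in oeCtrl libraries (log2 -0.70 ± 0.052, adjusted p = 3.28e-17). Of INO80, a remodeller with which YY1 associates, 1 of 14 measured members rose (Ino80d) and 6 fell (median log2 -0.16; 0 and 5 in the fit over both stages), the riser being lost without replicate 1 of either group. Ruvbl1, an ATPase of the complex on chromosome 6, had 72.8 and 74.4 CPM in shYy1 libraries, against 127 and 132 CPM in oeCtrl libraries (log2 -0.81 ± 0.052, adjusted p = 7.29e-20), and its partner Ruvbl2 119 and 125 CPM in shYy1 libraries, against 166 and 162 CPM in oeCtrl libraries (log2 -0.43 ± 0.05, adjusted p = 1.63e-10). Of the Hox genes 4 of 32 measured members rose (Hoxb3, Hoxb4, Hoxc9 and Hoxd8) and 4 fell (median log2 0.24; 0 and 1 in the fit over both stages), of which none fell once chromosome 6, which holds the Hoxa cluster, was left out with chromosomes 8, X and Y. Of the clustered protocadherins 2 of 20 measured members rose (Pcdhgc3 and Pcdhgc5) and 0 fell (median log2 0.11; 0 and 0 in the fit over both stages), and none was called by DESeq2 or without either ES oeCtrl library or replicate 1 of EPS shYy1. The 2-cell-like list had no member above the filter.

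Among the 12 largest rises and 12 largest falls were genes of no list. Nr2f2, an orphan nuclear receptor of mesenchyme and veins, had 13.7 and 14.8 CPM in shYy1 libraries, against 3.91 and 4.51 CPM in oeCtrl libraries (log2 1.76 ± 0.16, adjusted p = 4.27e-14). Vnn1, a pantetheinase, had 37.6 and 33.9 CPM in shYy1 libraries, against 8.65 and 10.1 CPM in oeCtrl libraries (log2 1.94 ± 0.11, adjusted p = 3.89e-22), and Cdc42ep2, an effector of the GTPase Cdc42, 9.98 and 10.6 CPM in shYy1 libraries, against 1.46 and 1.95 CPM in oeCtrl libraries (log2 2.60 ± 0.21, adjusted p = 8.43e-16). EPS shCtrl stood between both groups in these 3 genes, with 8.29 and 10.5 CPM of Nr2f2. Trank1, Slc45a3 and Kank4 rose by 2.14, 1.76 and 1.71 on the log2 scale. Slc15a2, a peptide transporter, had 1.46 and 1.22 CPM in shYy1 libraries, against 16.1 and 16.2 CPM in oeCtrl libraries (log2 -3.57 ± 0.18, adjusted p = 2.68e-24). Trh, the precursor of thyrotropin-releasing hormone, on chromosome 6, had 7.68 and 7.77 CPM in shYy1 libraries, against 45.6 and 43.5 CPM in oeCtrl libraries (log2 -2.53 ± 0.10, adjusted p = 3e-29), and Ina, a neuronal intermediate filament, 2.04 and 1.48 CPM in shYy1 libraries, against 9.91 and 11.2 CPM in oeCtrl libraries (log2 -2.56 ± 0.23, adjusted p = 6.89e-14). Trh was higher in EPS shCtrl than in both groups, with 49.5 and 55.5 CPM. The noncoding RNA Platr10 and Tmem59l on chromosome 8 fell by 2.77 and 1.96.

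Finally, the difference on day 6 was set beside the difference between the same lines before differentiation, taken from a fit over 16 libraries. The undifferentiated lines gave 7673 called genes of 17207 (44.6%), 2909 of them at least 2-fold apart (16.9%), and a change of the difference between stages was called for 5114 genes (29.7%), 2408 upward and 2706 downward. Of 6415 genes called on day 6 and tested at both stages, 2271 (35.4%) were called in the same direction before differentiation, 1253 (19.5%) in the opposite direction and 2891 not. For comparison, of the genes not called on day 6, 18.4% were lower and 19.9% higher in EPS shYy1 before differentiation. The opposite share was thus near that of genes without a day 6 call. Among those at least 2-fold lower on day 6, 62 of 420 had the same and 122 the opposite direction before differentiation, and among those at least 2-fold higher 108 of 371 and 22. The medians of chromosomes 6 and 8 changed by 0.014 and 0.052 between stages, and that of the X by -0.69. Before differentiation 19 of 22 measured members of the fibroblast and feeder list were higher in EPS shYy1 and 1 lower (median log2 2.49). Over all genes tested 22.6% were higher and 22.0% lower. The change between stages was called downward for 18 members and upward for 1. Fibroblast and feeder markers summed to 42.3 and 33.7 CPM in undifferentiated EPS shYy1 and 6.29 and 5.56 CPM in undifferentiated ES oeCtrl. Whether feeder cells brought this RNA was not tested.

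Pluripotency lists differed in how they stood before differentiation. Of the core list 7 of 12 members were then higher in EPS shYy1 and 1 lower, of the naive list 6 and 6 of 20, and of the formative list 6 and 4 of 17. A change between stages was called downward for 11 and upward for 0 core members, for 13 and 3 naive members and for 7 and 2 formative members. Sox2 was slightly higher in undifferentiated EPS shYy1, with 446 and 481 CPM, against 401 and 360.2 CPM in ES oeCtrl, and its difference changed by -2.04 on the log2 scale (adjusted p = 1.05e-10). Pou5f1 (log2 -1.41 ± 0.11, adjusted p = 5.27e-09) and Nanog (log2 -1.97 ± 0.12, adjusted p = 1.25e-10) turned likewise, each called higher in EPS shYy1 before differentiation (log2 0.46 ± 0.074, adjusted p = 3.42e-05, and log2 0.20 ± 0.072, adjusted p = 0.0266). Dnmt3l had 10.3 and 7.37 CPM in undifferentiated EPS shYy1 and 2.59 and 2.78 CPM in undifferentiated ES oeCtrl (log2 1.70 ± 0.32, adjusted p = 0.000665), the reverse of day 6. Dnmt3a, at 97.6 and 94.9 CPM in undifferentiated EPS shYy1 and 13.5 and 14.3 CPM in undifferentiated ES oeCtrl (log2 2.79 ± 0.088, adjusted p = 2.89e-15), kept its direction while its difference shrank (log2 -2.40 ± 0.12, adjusted p = 4.24e-12).

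Imprinted genes took several courses. Grb10 had 143 and 166 CPM in undifferentiated EPS shYy1 and 39.4 and 33.7 CPM in undifferentiated ES oeCtrl, and its direction turned by day 6 (log2 -5.18 ± 0.16, adjusted p = 7.07e-15). H19 had 8.95 and 9.03 CPM in undifferentiated EPS shYy1 and 0 and 0.0678 CPM in undifferentiated ES oeCtrl, where 1 count was all that both libraries held, and turned as well (log2 -8.57 ± 0.40, adjusted p = 3.19e-12, a fitted value that rests on that count). Meg3 turned the other way, lower before differentiation with 65.7 and 78.2 CPM in EPS shYy1, against 178 and 163 CPM in ES oeCtrl, and higher after it. Igf2 was higher at both stages, with 16.97 and 14.8 CPM in undifferentiated EPS shYy1, against 0.28 and 0.475 CPM in undifferentiated ES oeCtrl. Igf2r was higher at both stages too (log2 1.05 ± 0.09, adjusted p = 8.04e-09 before differentiation), and no change between stages was called (log2 -0.027 ± 0.12, adjusted p = 0.908).

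The genes whose difference moved most between stages include homeobox and signalling genes. Otx2, a homeobox factor of the primed epiblast and forebrain, had 2.58 and 1.19 CPM in undifferentiated EPS shYy1 and 32.1 and 26.8 CPM in undifferentiated ES oeCtrl, but 8.26 and 7.77 CPM in shYy1 libraries, against 4.74 and 5.18 CPM in oeCtrl libraries on day 6. Fgf10, a fibroblast growth factor, had 3.15 and 2.14 CPM in undifferentiated EPS shYy1 and 24.1 and 30.3 CPM in undifferentiated ES oeCtrl, and 21.01 and 18.2 CPM in shYy1 libraries, against 12.5 and 14.5 CPM in oeCtrl libraries on day 6. Both were lower in EPS shYy1 before differentiation and rose slightly on day 6 (log2 0.70 ± 0.16, adjusted p = 0.000301, and log2 0.55 ± 0.10, adjusted p = 1.63e-05). Cdx2 and the X-linked Dgkk and Zfp36l3 had no count in undifferentiated ES oeCtrl, so that undifferentiated EPS shYy1 was at least 5.62-fold, 6.90-fold and 8.43-fold higher, taking 3 counts per library as the floor, whereas on day 6 Cdx2 and Dgkk were lower in EPS shYy1, calls lost in the fit over both stages, and Zfp36l3 was not called (log2 0.0078 ± 0.12, adjusted p = 0.971).

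**Figure D5:**
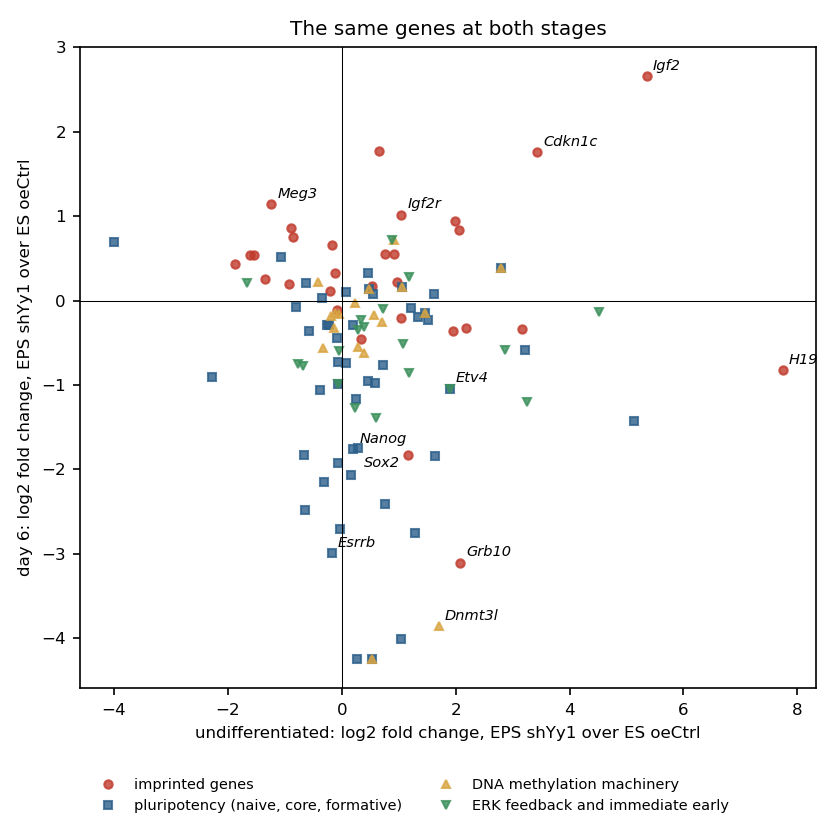
Log2 fold change of EPS shYy1 over ES oeCtrl on day 6 (y axis) against the same in undifferentiated cells (x axis) for the members of 4 groups of lists, leaving out genes with no count in a whole group. Most pluripotency and ERK genes lie below 0 on day 6 on both sides of 0 before it, while Igf2 and Cdkn1c lie above 0 at both stages and Grb10, H19 and Dnmt3l are higher before and lower on day 6.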

How the data were processed

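RNA-seq counts per gene of 16 libraries, 2 in each of 8 groups, were used as deposited by the authors, one table of raw counts per library. The tables end in lines for reads with no feature, ambiguous or not unique, which stayed out of library sizes. In the 4 libraries compared these lines held 5.61 to 6.79%, 3.90 to 4.24% and 5.80 to 6.07% of reads. Per the labels' protocols, total RNA was taken with TRIzol and libraries were made with a VAHTS mRNA-seq V3 kit. Per the submitters' processing notes, CASAVA, Bowtie2 2.3.2 and the build GRCm38.p6 (mm10) were used, with no role stated. The counting tool and its use of strand are not given in the sources used here.

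Genes passing filterByExpr were scaled by TMM and tested with edgeR 4.0.16 (robust quasi-likelihood, two-sided, R 4.3.3) in a fit of the 8 day 6 libraries in 4 groups. Both stages were compared in a fit of 16 libraries in 8 groups. A gene was called at an adjusted p under 0.05. CPM are counts relative to the library total on genes, with TMM factors. The limit of 3 counts covers counting error only. On simulated counts with 200 changed genes the day 6 step called 73.1% of 1.5-fold, 91.0% of 2-fold and 98.5% of 4-fold changes, and 5.91% of its calls were false. The step for the change between stages called 32.8%, 70.1% and 83.3%, with 3.12% false. These simulations changed 200 of 15719 and 200 of 16929 genes, whereas 40.3% and 29.7% of genes were called in the data. Their shares may therefore not hold for the calls made here.

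The members and the 36 gene lists (718 symbols, 711 in the tables) were chosen with earlier results of these data known. The rule for named genes gave 168: 12 genes each at the top of the rises and of the falls, taken from called, fully named genes averaging at least 5 CPM whose groups stood apart, then from every list the 4 called genes (or fewer) with the smallest p, 26 fixed genes, and the 6 largest rises and falls of the change between stages. Genes named beyond this rule were chosen after their values were seen. They are members of fewer than 6 called in a list, and Afp, Airn, Apoa1, Dlk1, Dusp6, Egr1, Hnf4a, Kcnq1ot1, Klf2, Klf5, Magel2, Mirg, Myc, Ndn, Nnat, Nodal, Peg3, Plagl1, Prl3d1, Rian, Rtl1, Spry2, Spry4, Tet1, Tfcp2l1, Tpbpa, Trim28, Tsix, Ttr, Usp29, Zfp57 and Zim1. Chromosomes came from RefSeq's GRCm38.p6 gene table and were found for 95.4% of the genes tested. Alternatives were RLE factors, no count filter, DESeq2 1.42.0, a replicate block, leaving out each library, leaving out X-linked and Y-linked genes, fits of 4 or 16 libraries and, added later, leaving out chromosomes 6, 8, X and Y. A few genes are not reported here. The untransduced lines and the other 41 samples were not analysed here.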

Additional observations from a re-analysis of the deposited data

Results flagged for a closer look

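The difference between EPS shYy1 and ES oeCtrl changed between the undifferentiated stage and day 6 for 5114 genes in edgeR's interaction test at an adjusted p under 0.05. Among the 166 named genes tested at both stages 107 were called so, and 49 of them were called in opposite directions at the stages. Over all 17207 genes tested the share called was 29.7%, and most named genes were chosen as day 6 calls and 12 for the size of this change, which sets their count in part. Those given here were called in opposite directions, with the day 6 call from the 8 libraries of that day, with a difference that moved at least 4-fold, or are among the 6 largest changes of either direction, and a positive value means that the difference moved upward in EPS shYy1 on day 6. In the fit of 16 libraries, which gives the change between stages, the day 6 call was lost for Thbs1 (adjusted p = 0.0600), Hoxa9 (0.105), mt-Co3 (0.212), Cdh2 (0.455), Mir6236, Eya1, Cdx2 and Dgkk. The calls of mt-Co3, Cdh2, Mir6236 and Eya1 were lost by DESeq2 as well.

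Upward changes on the log2 scale were 6.89 for Xist, 5.00 for Mir6236, 4.69 for Otx2, 4.41 for Chit1, 4.15 for Cdc42ep2, 4.07 for Eya1 and 3.92 for Fgf10. Smaller ones were 2.68 for Krt7, 2.50 for mt-Co3, 2.40 for Tjp3 and 2.38 for Meg3. Epithelial genes (Krt7, Tjp3) and the maternally expressed Meg3 are among them.

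Downward changes were -8.57 for H19, -5.56 for Dnmt3l, -5.18 for Grb10, -4.92 for T, -4.59 for Tmem59l and -4.24 for Piwil2. Matrix and adhesion genes gave -3.75 for Thbs1, -3.39 for Cyr61, -2.87 for Cdh2 and -2.52 for Mmp2. Before differentiation 19 of 22 measured fibroblast and feeder genes were higher in EPS shYy1 and 1 lower, against 22.6% and 22.0% of all genes tested. Germline and pluripotency genes gave -3.42 for Ddx4, -3.11 for Tdrd1, -3.17 for Dppa5a and -2.04 for Sox2. Further downward changes were -2.94 for Etv4, -2.64 for Hoxa3, -2.41 for Lmo2, -2.27 for Hoxa9 and -2.10 for Notch4.

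Where a group held no count the size of the change depends on the fit, and the adjusted p alone is given. It was 0.0187 for Cdx2, 1.16e-05 for Dgkk, 0.000928 for Myo1f and 0.0118 for Zfp36l3.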

How the results depend on the processing

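The day 6 count of 6423 was 6428 with RLE factors, 6045 without a count filter, 4757 by DESeq2, 6060 without X-linked and Y-linked genes, 6640 from the 4 libraries alone and 5005 without chromosomes 6, 8, X and Y. It was 3554 (1629 higher, 1925 lower) in the fit of 16 libraries, which also ended 31 named calls and moved 38 of 70 list counts by over 1.5 times, and the cause was not tested. No other alternative moved more than 13 list counts. Spread between the 2 libraries of a group was also measured as chi-squared per degree of freedom. It was 2.60 to 20.2 in the undifferentiated groups (6.18 in EPS shYy1, 7.10 in ES oeCtrl). On day 6 it was 1.89 to 3.27 (1.89 in EPS shYy1, 2.76 in ES oeCtrl). Samples of one replicate number did not deviate together (correlation -0.028 for this contrast), and with the replicate block 6323 genes were called. Leaving out one library gave 4911 to 5334 calls (2427 to 2584 higher, 2484 to 2750 lower) on fewer samples, and ended 9 to 13 named calls. Among the named calls, those of Cdh2, Ddx3y, Dnmt3b, Eya1, Hcn4, Hes1, Hoxa9, Hoxb4, Mir6236, Pcdhgc3, Pcdhgc5, Pecam1, Sox17, Tbx5, Yy1, mt-Co3, mt-Nd4l and mt-Nd6 were lost without at least 1 library. Chromosome medians then ran between -0.431 and -0.407 (8), 0.293 and 0.317 (X) and, over 5 genes, 0.363 and 0.787 (Y). Signs turned for Col1a1 (0.0053 without X-linked and Y-linked genes, and between -0.032 and 0.027 over the single libraries left out), Chit1 (-0.68 to 0.22) and Zfp36l3 (-0.13 to 0.15), none of them called. Scaling moved the all-gene median by at most 0.026 on the log2 scale. With 2 libraries a group, changes of scarce genes are not resolved.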
